A study of Mus musculus with 4 samples.

Results

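The regions described here are 216 of 15215 accessible regions (1.42%) in WT double-positive thymocytes. They had many reads in the 10 kb around the summit, where the reads of the region itself count too. The local background is the number of reads that the peak caller found around a summit, given per 200 bp. It was recovered at each summit from the fold enrichment and the p-value of that region. A region was a member when its WT local background was over 4 times the most frequent one of the WT list, that is above 5.49 where the most frequent value was 1.37. In whole reads this means over 274 reads in the 10 kb around the summit, against 68.6 at the genome background. By the same rule, with 4.13 as the limit, 168 of 7645 regions (2.20%) qualified in the KO list. The values that chose the members are WT values, so the WT background, pileup and fold enrichment below are a description. The KO list was not used to choose them, but the KO over WT ratios of the background have the WT value that chose them as denominator. Choosing by a high denominator can lower these ratios, above all near the limit, and by how much was not tested.

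The assay was ATAC-seq, in which a transposase cuts open chromatin and tags the cut ends for sequencing, on thymocytes of C57BL/6 mice sorted as positive for both CD4 and CD8 (double-positive, DP). KO mice carried Cd4-cre and loxP-flanked alleles of Chaf1b (genotype Cd4-cre;CHAF1bfloxp/floxp), and WT mice carried the same floxed alleles without Cre (CHAF1bfloxp/floxp). Chaf1b encodes the p60 subunit of chromatin assembly factor 1, which places histones on newly copied DNA, and Cd4-cre acts in T-lineage cells from about the DP stage on. Each group had 2 replicates, which the submitters pooled into 1 list, so 1 KO list was set against 1 WT list, without replicate values, without a replicate check and without a test between groups. The age of the mice, and the spread between animals, are not given in the sources used here.

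The genome background was 1.03 reads in KO and 1.37 reads in WT, so the KO list had 0.752 times the WT depth, and this ratio is the value that equal coverage would give below. As a check of the cell label, 1 of 15 DP thymocyte genes had a region at a gene end in KO and 9 in WT, against 0 in KO and 1 in WT of 12 genes of other cell types. Counted over the whole gene as well, these were 3 in KO and 13 in WT of the DP genes, and 1 in KO and 4 in WT of the others (Ebf1, Pax5, Itgam and Klf1 in WT). The KO counts are too few to check the label. Intervals in the text are exact 95% intervals for counting error only. They cover neither the spread between mice nor the choice of members by their WT background, nor the picking of the highest and lowest ratios.

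Peak callers of the MACS family compare the reads at a summit with the reads in a window around it, so that a site in a crowded stretch needs more reads to be called. Stretches of this kind in mouse are known to include ribosomal RNA genes, satellite repeats next to centromeres, copies of mitochondrial DNA in the nucleus, and tandemly repeated gene families. In such places the reference assembly can hold fewer copies than the genome does, and a read may match several of them. The sources used here do not say how the authors placed such reads, and its part in the values below was not tested.

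Annotated sequences lie in or beside only some of these regions, and 3 sets carry the points made below. The first set is the microRNA of Mir101c, a gene beside the largest chromosomal block of members, with the mature sequence at chr9:3038680-3038698 (minus strand). It is shown beside the mature miR-101a-3p of chr4:101346957-101346977 (minus strand), from which it differs in where it starts and ends. Sequences are from RefSeq on GRCm38.p6, the assembly behind mm10, and capitals mark the seed, bases 2 to 8.
mmu-miR-101c: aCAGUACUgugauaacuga
mmu-miR-101a-3p: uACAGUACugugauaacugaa
The 19 bases of miR-101c were found whole in miR-101a-3p from base 2 on, so the seeds overlap but are shifted by 1 base.

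The second set is the bases just before the annotated start of an interferon zeta-like gene, in a cluster where WT regions were called over 15 of 16 genes. The stretch was found in the promoter windows of 3 of them, and only such windows were searched for it. Most WT summits of the cluster lay inside the annotated gene, at a distance from its start that went with the annotated length, as given below. The stretch before Gm13272 is chr4:88779600-88779849 (plus strand, 250 bases), and capitals mark the 165 bases that the WT regions at Gm13285 and Gm13287 hold letter for letter.
Gm13272: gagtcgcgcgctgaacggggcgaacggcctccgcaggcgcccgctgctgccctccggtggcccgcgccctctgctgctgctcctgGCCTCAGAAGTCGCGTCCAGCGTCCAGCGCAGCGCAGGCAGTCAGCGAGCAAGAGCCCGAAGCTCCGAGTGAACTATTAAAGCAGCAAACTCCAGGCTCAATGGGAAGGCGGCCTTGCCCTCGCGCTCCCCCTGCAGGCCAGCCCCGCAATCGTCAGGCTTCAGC
Aligned over the 171 bases before Gm13287 that lie in its region, the stretches before Gm13287 and Gm13272 were 100% identical. Of 32851 promoter windows in the table, 3 held the 165 bases, and these were the windows of Gm13272, Gm13285 and Gm13287.

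The third set is the promoter of Jun, a single-copy gene that encodes a subunit of the transcription factor AP-1, shown as a contrast to the repeated sequences. The 250 bases before its start are chr4:95052223-95052472 (minus strand), and all of them lie in the WT region. Capitals mark the motif TGACNTCA, an AP-1 and CREB type site that the Jun promoter is known for.
Jun: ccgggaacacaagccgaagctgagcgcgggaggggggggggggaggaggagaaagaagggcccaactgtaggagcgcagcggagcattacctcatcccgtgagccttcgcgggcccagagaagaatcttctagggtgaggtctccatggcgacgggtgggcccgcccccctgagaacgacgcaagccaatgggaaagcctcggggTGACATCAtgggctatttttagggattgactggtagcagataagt
The motif, searched on both strands, occurred 1 time in these bases and in 2460 of the 32851 promoter windows (7.49%). It was also found in 6 of the 15 windows of the interferon zeta cluster, and not in that of Gm13272. The windows of that cluster lie at unlike distances from the WT summits, as given below.

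The members were strong in reads and weak in fold enrichment. Their pileup, the number of reads over the summit, ran from 19 to 386 with a median of 70, against a median of 18 over the other 14999 WT regions. The local background ran from 5.50 to 168 with a median of 9.95, and 89 members exceeded 10 times, 66 members 20 times and 53 members 50 times the genome background. Their median fold enrichment was 4.04, against 6.55 at the other WT regions, since the pileup was divided by a high background. At 76 members the fold enrichment was under 3, which was the case at 2 of the other WT regions. Of the 42 WT regions with more than 200 reads at the summit, 41 were members. The highest pileup was 385 reads in KO and 386 in WT. If the caller had kept 1 read per position and strand, 400 reads would be the most that 200 bp extension allows. The sources used here do not say whether duplicates were kept, and a ceiling on the pileup was not tested.

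**Figure D1:**
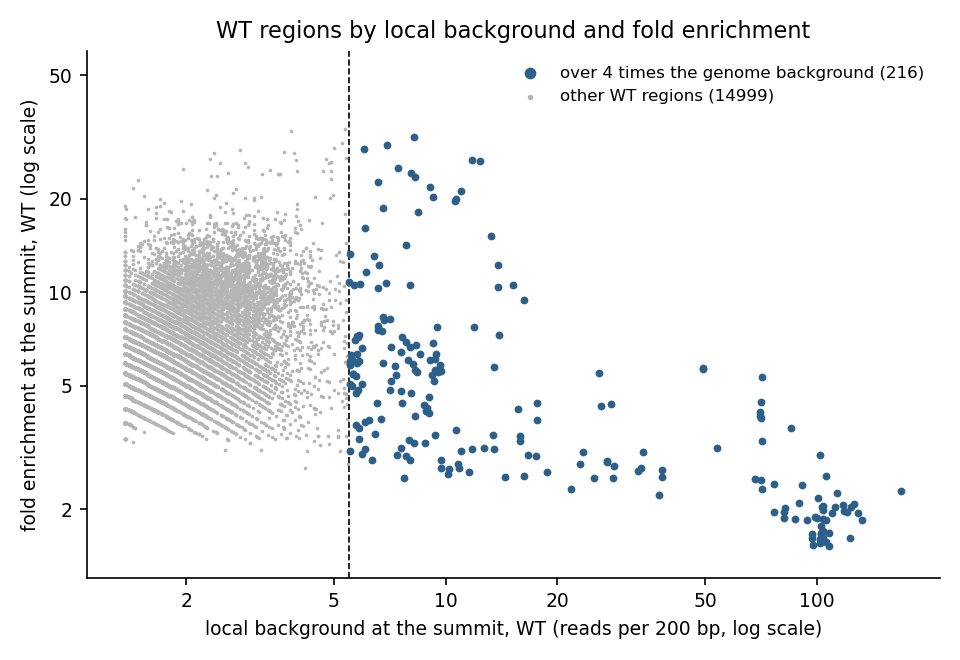
Each point is 1 WT region, with its local background (reads per 200 bp, log scale) on the x axis and its fold enrichment (log scale) on the y axis. The dashed line is 4 times the genome background, and the 216 regions to its right reach from a fold of 31.7 down to 1.52 as the background goes up to 168.

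The rule has a sharp limit with no gap in the values around it. The 5 members just inside had 275 to 276 reads in 10 kb and lay at Ppm1b, Gm13277, Btg1 and Gm13285 and at chromosome X, 170843564 to 170843840, with no gene within 1 kb. The 5 regions just outside had 272 to 273 reads and lay at Trip10 with Gpr108, Hivep2, Mid1 and Rgs2 and at chromosome 16, 3114935 to 3115239, again with no gene within 1 kb. Both sides hold gene ends and intergenic sites.

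The members were gathered in few places. Joined where they lay within 10 kb of each other, they formed 89 blocks, of which 61 held 1 member, 9 held 2 members and 19 held 3 or more, with 137 members between them. The 4 blocks of 10 or more members held 74. Of those 4 blocks, 2 made up the 5S ribosomal RNA array on chromosome 8, and the others were the start of chromosome 9 and an unplaced contig. Chromosome 8 had 43 members and chromosome 9 had 27, while chromosome 19 had 0 of 447 WT regions. On chromosome Y, 14 of 25 WT regions were members.

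Members stood away from genes more often than WT regions at large. Within 1 kb of an annotated gene lay 114 of 216 members (52.8%, interval 45.9 to 59.6), where the share over all WT regions was 83.4%. Between genes lay 74 members (34.3%), against 16.2% of all WT regions. On contigs outside the chromosomes lay 28 members (13.0%, interval 8.79 to 18.2), against 0.368% of all WT regions, and the gene table holds no genes there. Mouse autosomes start in the assembly after a gap of 3 Mb, and in the 500 kb after it, a window chosen after these positions were seen, 41 of 103 WT regions were members (39.8%). The window thus held 41 of the 216 members and 0.677% of all WT regions. The members lay on 10 of 19 autosomes, with 20 on chromosome 9, 10 on chromosome 11, 4 on chromosome 10 and 1 on each of 7 others.

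A KO region overlapped 161 of the 216 members by at least 1 bp (74.5%, interval 68.2 to 80.2), where the share over all WT regions was 46.2%. Counted as blocks, 71 of 89 had a KO region (79.8%). A region with more evidence was found again more often in either class, so the shares were also read at like significance. With a -log10 q from 10 to 20, a KO region was found at 50 of 64 members (78.1%) and at 65.2% of the other WT regions. From 5 to 10 it was found at 16 of 37 members (43.2%) and at 25.5% of the others. From 20 to 50 it was found at 50 of 50 members and at 96.3% of the others, and above 50 at all 41 members and all 158 others. Of the 168 KO regions with a high background, 149 overlapped a member (88.7%, interval 82.9 to 93.1). Over all KO regions, 92.6% overlapped some WT region, and that share asks less, since any WT region counts. Seen from the members, 145 of 216 (67.1%) overlapped a KO region that was itself of high background.

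The KO over WT ratio of the local background was higher at members than elsewhere. At the 161 members with a KO region, the KO over WT ratio of the local background had a median of 0.868 and ran from 0.410 to 1.03. At the other 6865 WT regions with a KO region the median was 0.688, and over all 7026 it was 0.691. Equal coverage would give 0.752, and 125 of 161 members (77.6%) lay above that, against 31.7% of the others. Relative to depth, the medians were 1.15 at members and 0.915 at the others, on either side of equal coverage. The summit pileup gave a like picture, with a median KO over WT ratio of 0.887 at members and 0.652 at the others. The 161 members matched 159 KO regions, of which 2 each overlapped a pair of members. Members within 10 kb of each other share reads in the window, so these counts are not of separate measurements. Counted once per block, the median ratio relative to depth was 1.09, against 1.15 per member.

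The ratio moved with the number of reads at the summit. Members with under 50 WT reads had a median ratio of 0.709, close to the 0.691 of other regions with so few reads. From 50 to 100 reads the median was 0.794 at members and 0.638 at others. Those members include neighbouring 5S copies in overlapping windows, so they are not separate measurements. The 30 members of the 5S array had a median of 0.877, and the 12 at named protein-coding gene ends 0.628. Both of these groups also hold members outside that read range. From 100 to 200 reads the median was 0.876 at 34 members and 0.904 at 25 others, so that regions outside the member set with as many reads had a ratio as high. From 200 reads on, it was 0.905 at members, and the 41 members there all lay above the depth ratio.

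**Figure D2:**
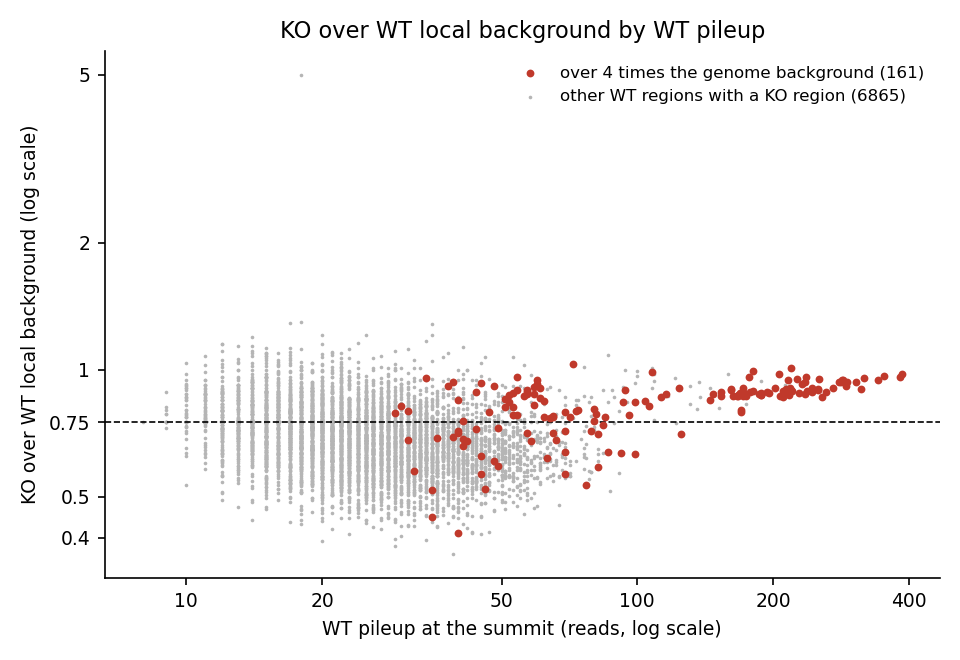
Each point is 1 WT region with a KO region, with the WT pileup (reads, log scale) on the x axis and the KO over WT ratio of the local background (log scale) on the y axis. The dashed line is the depth ratio of 0.752, and the 41 members with 200 or more reads lie between 0.862 and 1.01.

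The reads of some members sat in the called regions and those of others around them. The reads that called regions can hold, at most, were 62.8% of those in the 10 kb at the median member and 37.3% at the median of the other WT regions. At 55 members this limit was 100%, so that called regions alone could supply the background. At 83 members (38.4%) it was under 50%, so most of the reads lay outside any called region. The same was the case at 67.1% of the other WT regions, a larger share.

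The 5S ribosomal RNA genes were the largest family among members. The 5S RNA is the small RNA of the large ribosomal subunit that RNA polymerase III transcribes, from genes that stand in a tandem array with a promoter inside the gene. On chromosome 8 the RefSeq table lists 51 short copies with a median distance of 1698 bp from one start to the next. A region was called over 32 of them in KO and over 32 in WT, and these were the same 32 copies. Their WT regions included 30 members. At the remaining pair, n-R5s100 and n-R5s128, the WT background of 4.62 and 5.00 stayed under the limit.

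Whether a copy carried a region went with its annotated length. Of 32 copies of 121 bp, 31 had a region in KO and 31 in WT, and of 17 copies of 119 bp, 1 had a region in KO and 1 in WT. The exceptions were n-R5s136, a copy of 121 bp with no region in either list, and n-R5s107, a copy of 119 bp with a region in both. Rn5s-ps1, of 111 bp, and Gm23647, of 109 bp, had none in either list. The pileup over the 32 copies ran from 34 to 59 reads in KO with a median of 48.5, and from 34 to 69 reads in WT with a median of 53.5. The ranges overlap almost fully, and 10 of the copies had at least as many reads in KO as in WT. The summit lay at a median of 67.5 bp from the lower end of the gene in KO and 68.5 bp in WT, which is near the middle of the gene.

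Read numbers at the 5S copies were closer between the lists than the depth. Summed over the 32 copies the pileups were 1526 reads in KO and 1677 in WT, at a ratio of 0.910 (interval 0.848 to 0.976), which lies above the depth ratio of 0.752. The background ratio ran from 0.768 to 0.963 with a median of 0.877, and all 32 copies exceeded the depth ratio. The 2 blocks of members in the array spanned 123543814 to 123579636 with 14 members and 123592998 to 123622131 with 16 members. Without a sequence of the copies in the tables, the base differences behind the 2 lengths were not analysed here, and whether reads told copies apart was not tested.

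**Figure D3:**
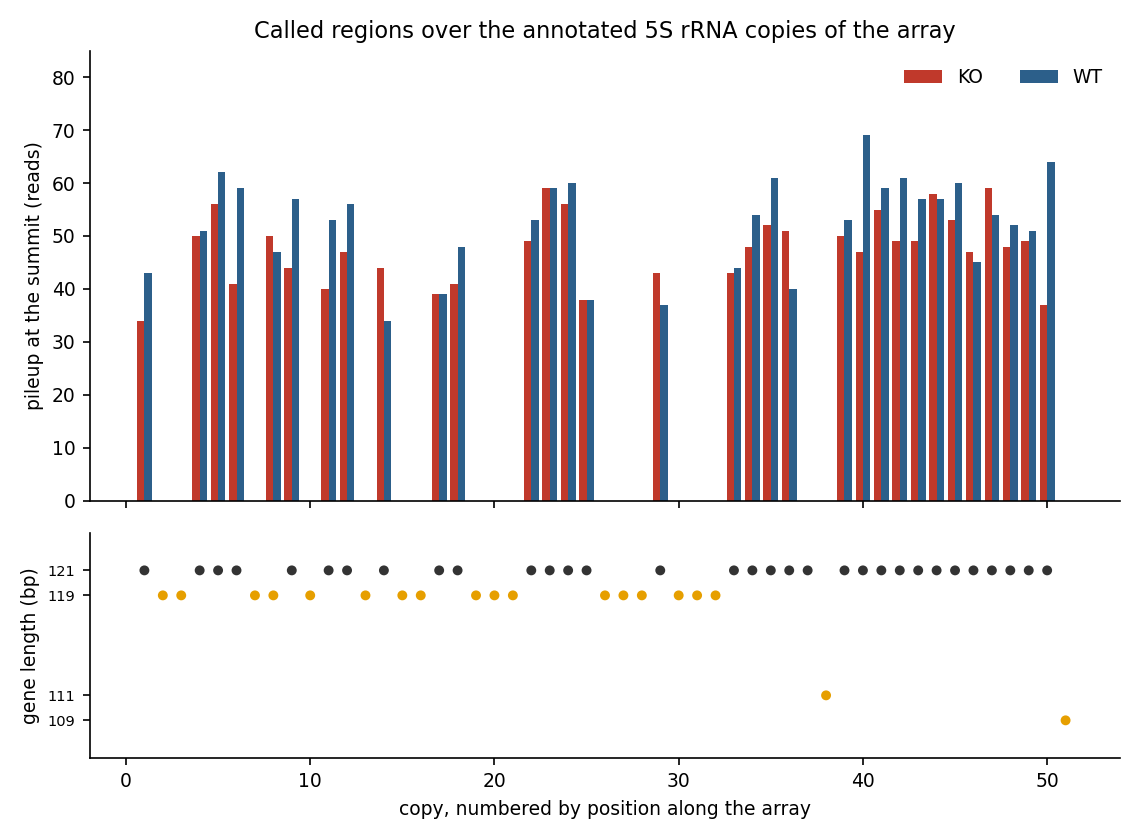
Bars give the pileup at the summit (reads) of the region called over each annotated 5S copy, KO left of WT, and the lower panel gives the annotated length of the copy in bp. The 32 copies with bars are the same in KO and WT, and 31 of them are 121 bp long.

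Other ribosomal RNA genes were at the far end of the background scale. At chromosome 17, 39843311 to 39848407, at Rn18s-rs5, annotated as a pseudogene related to the 18S RNA, and AY036118, 4 members had a WT background of 97.80 to 101.88. One of them, 39846248 to 39848407, was also called in KO, with a pileup of 313 in KO and 306 in WT and a background of 95.38 in KO and 101.78 in WT. The other three had a WT fold of 1.53 to 1.60 and no KO region. Within 10 kb of genes named for ribosomal RNA, the 5S copies and Rn4.5s included, lay 35 members, 31 of them with a KO region.

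The small RNA gene Rn4.5s on chromosome 6 (47654921 to 47655094, 174 bp) had a region over it in WT and none in KO. In the WT list that region, 47654893 to 47655261, had 29 reads and a background of 8.20. Further along the chromosome came 6 more members, with pileups of 29 to 42 and backgrounds of 6.70 to 12.72. Of these 7, the region 47685268 to 47685819 had a KO region, with 18 reads in KO and 29 in WT. From 47739855 to 47753018 the summits of 4 members, at Gm52861 and beyond, followed each other at 4372, 4254 and 4313 bp, a spacing close to constant.

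The interferon zeta genes on chromosome 4 stood on the other side of the depth ratio from the 5S array. These are type I interferon-like genes, annotated as Ifnz and a row of predicted genes, at a median distance of 2928 bp. A region was called over 8 of the 16 genes in KO and over 15 in WT, and all 8 were among the 15. Over all WT regions, 46.2% had a KO region. The WT regions of the cluster included 8 members, of which 3 had a KO region, against 74.5% of all members. The pileup ran from 13 to 20 reads in KO with a median of 19, and from 24 to 46 reads in WT with a median of 34, so the raw reads of the lists did not overlap. Divided by the depth ratio, the KO pileups run from 17.3 to 26.6 and overlap the lowest WT values.

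Of the genes called in both lists, Gm13278 had the largest difference, with 20 reads in KO and 46 in WT, a background of 2.98 in KO and 5.70 in WT, and a background ratio of 0.523. Gm13279 had 20 reads in KO and 35 in WT, with a background ratio of 0.520, and Gm13287 had 18 reads in KO and 35 in WT, with 0.448. Summed over the 8 genes called in both lists, the pileups were 145 reads in KO and 262 in WT, at a ratio of 0.553 (interval 0.449 to 0.680), under the depth ratio of 0.752. The other WT regions with under 50 WT reads and a KO region had a median pileup ratio of 0.655, inside that interval and also under the depth ratio. The 7 genes called in WT only had 28 to 39 WT reads, so the sum leaves out those with too few KO reads to be called.

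The background ratio was under the depth ratio at all 8, with a range of 0.448 to 0.627, where the other WT regions with a KO region had a median of 0.688. The WT summits followed each other at a median of 2931 bp, close to the distance of the genes. Of the 15 WT summits, 10 lay inside the annotated gene, 125 to 698 bp from its start, and 5 lay 31 to 73 bp before it. The 5 include Gm13272, Gm13285 and Gm13287, where the stretch printed above stands, at 47, 40 and 31 bp. The place of the summit went with the annotated length of the gene. At genes of 1462 bp the WT summits lay 613 to 633 bp after the start, and at 968 bp 125 to 128 bp after it. At 549 bp they lay 31 to 73 bp before it, and at 811 bp 38 and 47 bp before it. The promoter windows thus lie at unlike distances from the WT summits, so counts in them do not describe the called sites. The box TATAAA, searched on both strands, was found in 0 of the 15 promoter windows of the cluster and in 12.4% of all windows, which says only that these letters are not in these windows.

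**Figure D4:**
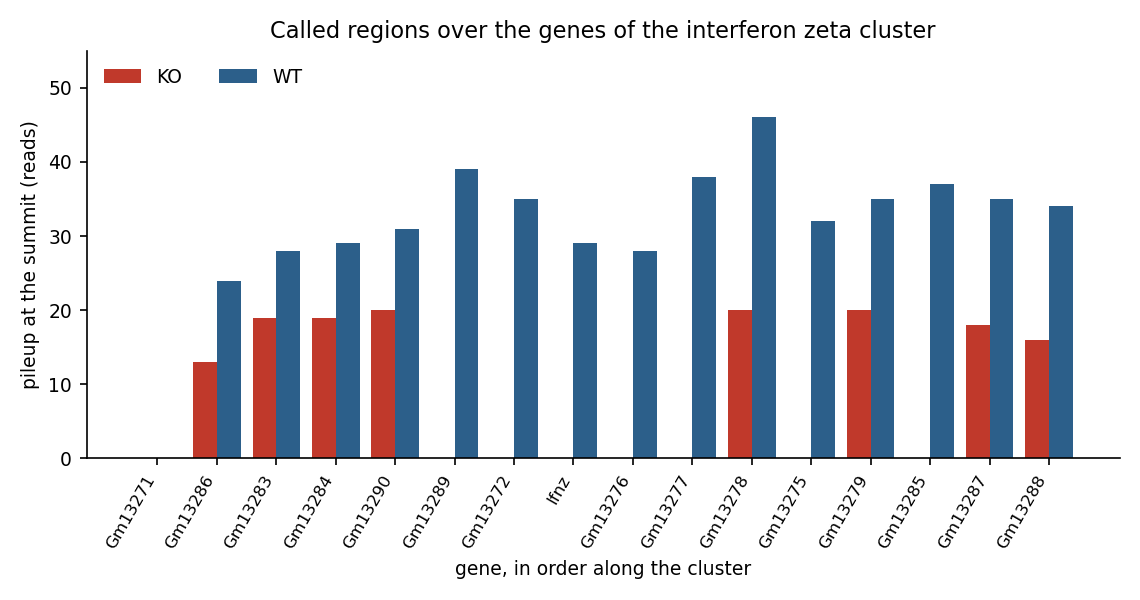
Bars give the pileup at the summit (reads) of the region called over each gene of the interferon zeta cluster, KO left of WT, in order along chromosome 4. Genes without a bar had no region in that list, and no KO bar exceeds 20 reads while no WT bar is under 24, with reads not scaled for depth.

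The start of chromosome 9 held the block with the most members on a chromosome. From 3000022 to 3038291 there were 20 members, with a WT background of 53.98 to 131.98, up to 96.2 times the genome background. A KO region overlapped 18 of them, with a background of 48.94 to 116.80 in KO and a median background ratio of 0.892. Pileups were 138 to 307 in KO and 161 to 314 in WT. The called regions held at most 34.6% of the reads around the median member, so the reads filled the stretch between them. The stretch of the mature miR-101c printed above lies 389 bp beyond the last of these members. Its gene Mir101c is the only annotated gene within 10 kb of the block. The KO list had high-background regions there without a member, at 3015257 to 3015459 with a background of 98.26 and at 3012157 to 3012362 with 90.22.

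All 27 WT regions of the contig chrUn_JH584304 were members, and 21 of them had a KO region. They formed a block of 24, from 59458 to 113459, with a WT background of 34.12 to 107.80, and 3 further members closer to the contig's start, with backgrounds of 23.50 to 28.30. The background ratio ran from 0.800 to 0.896 with a median of 0.871. In the block of 24, pileups were 75 to 194 in KO and 106 to 219 in WT. The contig chrUn_GL456392 had 1 member among 3 WT regions, with 145 reads in KO and 153 in WT.

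The 55 members without a KO region had a median WT background of 8.92, against 10.84 at the 161 with one. The 5 of them with the highest WT background lay in these crowded places, at chromosome 9, 3016964 to 3017186 and 3009344 to 3009552, and on chrUn_JH584304 at 104231, 85652 and 84843. Their WT background was 102.90 to 122.72 and their fold enrichment 1.52 to 1.67, the low end of the list.

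A few small blocks had high pileups, and among them were the highest of both lists. The region chromosome 1, 24611570 to 24616148, 4579 bp wide, had the highest background of both lists, 164.20 in KO and 168.50 in WT, with 379 reads in KO and 386 in WT. It covers the annotated pseudogenes Gm10222 and Gm10925, and the RefSeq table gives Gm10925 the synonym mt-Atp6, a mitochondrial gene name. No region was called on the mitochondrial chromosome in either list. On chromosome 2, 98662198 to 98667362, 4 members with no gene within 10 kb had a background near 68 in KO and 71 in WT, and pileups of 301, 153, 226 and 385 in KO beside 318, 177, 237 and 382 in WT. On chromosome 14, 19415686 to 19419504, 2 KO regions had 256 and 285 reads, and 3 members had 280, 292 and 283 in WT, since a single KO region spanned the last pair. In the gene body of Myo3a, which encodes a myosin of hair cells, 2 members had 270 and 274 reads in KO and 286 and 284 in WT. At each of these places the KO over WT ratio of the background was 0.933 or more, against 0.752 for the depth.

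Further blocks of high background lay on both sides of the depth ratio. On chromosome 10, 3111372 to 3116983, by the predicted gene Gm3318, 4 members had a background of 28.24 to 32.24 in KO and 33.64 to 38.34 in WT, with ratios of 0.774 to 0.841. At Tmem267 on chromosome 13, a gene for a transmembrane protein, 5 members had a WT background of 22.98 to 28.34 and 4 a KO region, with background ratios of 0.681 to 0.715. At 2700054A10Rik on chromosome 17, 2 members had 109 and 144 reads in KO and 116 and 147 in WT, with background ratios of 0.874 and 0.878. At Gm40237 on chromosome 4 there were 144 reads in KO and 161 in WT, with a ratio of 0.900. A block without a gene at chromosome 17, 13587383 to 13591614, had 3 members, 2 with a KO region.

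Sfi1, which encodes a centrosome protein and has many partial copies in mouse, had 8 members within 1 kb, 3 with a KO region. They lay on chromosome 11 between 3133553 and 3199373 with WT backgrounds of 7.98 to 33.00. The one at 3193054 to 3193586 had 89 WT reads and no KO region. Together with 2 members in the neighbouring pseudogene Pisd-ps1, 5 had a background ratio, with a median of 0.725. Duxf3, a member of the Dux family of homeobox genes that stand in tandem arrays, and its neighbours Gm4981 and LOC100504180 had 3 members on chromosome 10, 58223203 to 58233932, with WT pileups of 30 to 32. The one at 58231802 to 58232177 was also called in KO, with 28 reads in KO and 30 in WT. At 58223961 to 58224183 the KO list had a high-background region with 28 reads and no member beneath it.

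On chromosome Y the members were in 2 blocks of 5, at 140520 to 146367 and 258256 to 263685, with 4 more near the far end. Their background ratio, for the 7 with a KO region, ran from 0.704 to 0.785. The pseudoautosomal genes are shared by X and Y and pair in male meiosis. Mid1, a ubiquitin ligase gene, Erdr1 and Mid1-ps1 had 4 members within 1 kb, with 24 to 41 WT reads, and none had a KO region. Between Mid1 and Erdr1, the member at X, 170005499 to 170005857, had 18 reads in KO and 40 in WT, and a background of 3.64 in KO and 8.88 in WT. Its ratio of 0.410 (interval 0.343 to 0.488) was the lowest of the 161. The sex of the mice is not given in the sources used here.

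A further group stood out by fold enrichment. In 12 members the WT fold enrichment was 20 or more, a limit chosen after these values were seen, and each had a KO region. They were 435 to 761 bp wide, wider than the median member at 369 bp. Their pileups were 150 to 346 in KO and 170 to 353 in WT, at a KO over WT pileup ratio of 0.882 to 1.04 with a median of 0.936. The highest fold was at chromosome 12, 3109774 to 3110208, 435 bp wide, with 275 reads in KO and 291 in WT and a fold of 32.4 in KO and 31.7 in WT. Others lay in the bodies of Chl1, a neural cell adhesion gene, with 229 reads in KO and 235 in WT, of Cdk8, a kinase of the Mediator complex, with 228 in KO and 219 in WT, and of Cmss1 and Filip1l, which overlap, with 195 in KO and 206 in WT. At an end of Lars2, the mitochondrial leucyl-tRNA synthetase gene, there were 201 reads in KO and 217 in WT. Among the other WT regions, 45 had a fold of 20 or more, all 45 had a KO region, and their median pileup ratio was 0.934. The median pileup ratio was thus close in members and in other regions of such fold, with a wider range of 0.627 to 1.11 in the others. The background ratio had a median of 0.926 at the 12 members and 0.881 at the 45 others. None of the 12 members and 6 of the 45 others lay under the depth ratio.

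The highest background ratios were near 1. Smo, which encodes the signal transducer of the Hedgehog pathway, had a region in its gene body, 29747794 to 29749034 on chromosome 6, with 76 reads in KO and 72 in WT and a ratio of 1.03 (interval 0.875 to 1.21). Cdk8 followed with 1.01 (0.878 to 1.16), then chromosome 6, 3200735 to 3201695, with 0.991, Gm20590 with 0.989, and the region in Cmss1 and Filip1l with 0.976. Each of the 5 intervals lies above 0.752, while neighbours in this order do not differ beyond their intervals. These 5 were picked for the highest ratios, which can raise them, and the intervals do not cover that choice.

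The ends of ordinary protein-coding genes gave another picture. Of the members in blocks of 1 or 2, 13 lay within 1 kb of an end of a named protein-coding gene, and 12 had a KO region. The region at Mid1 did not. Apart from Lars2 with 0.870 and Hjurp, which encodes the chaperone of the centromeric histone CENP-A, with 0.773, their background ratios lay between 0.532 and 0.709, under the depth ratio. The intervals reach above the depth ratio at Opn3 (to 0.774), Pdcd10 with Serpini1 (to 0.755), Mon1b (to 0.773) and Crlf2 (to 0.850). At the other genes of that range they lie under it. The median of the 12 was 0.628. At other WT regions by such gene ends with 40 to 92 WT reads, the range of these members without Lars2, the median was 0.626 over 616 regions, and 558 of those lay under the depth ratio. The ratio at these members was close to that at gene ends of like pileup outside the set.

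At the Jun promoter printed above there were 28 reads in KO and 45 in WT, in 10 kb with 168 reads in KO and 297 in WT, at a ratio of 0.566 (interval 0.465 to 0.686). Ripk2, the kinase downstream of the NOD receptors, had 41 reads in KO and 77 in WT, and 175 reads in 10 kb in KO and 329 in WT. Its ratio of 0.532 (interval 0.440 to 0.641) was the lowest at a named gene end, and its interval lies under the depth ratio. Zbtb20, a zinc finger repressor gene, had 51 reads in KO and 82 in WT, with a ratio of 0.588. Sp4, a Sp family factor gene, had 2 members, with 28 and 41 reads in KO and 45 and 63 in WT. Ppm1b, a phosphatase gene, had 43 in KO and 69 in WT, and the pair Pdcd10 and Serpini1, which share a region, had 62 in KO and 92 in WT. Opn3, Mon1b and Crlf2 had ratios of 0.639, 0.640 and 0.709. Btg1, an antiproliferative gene, had a member in its body with 32 WT reads and no KO region. In the immunoglobulin heavy chain locus 1 member, at chromosome 12, 113424259 to 113425477, had 37 reads in KO and 58 in WT.

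**Figure D5:**
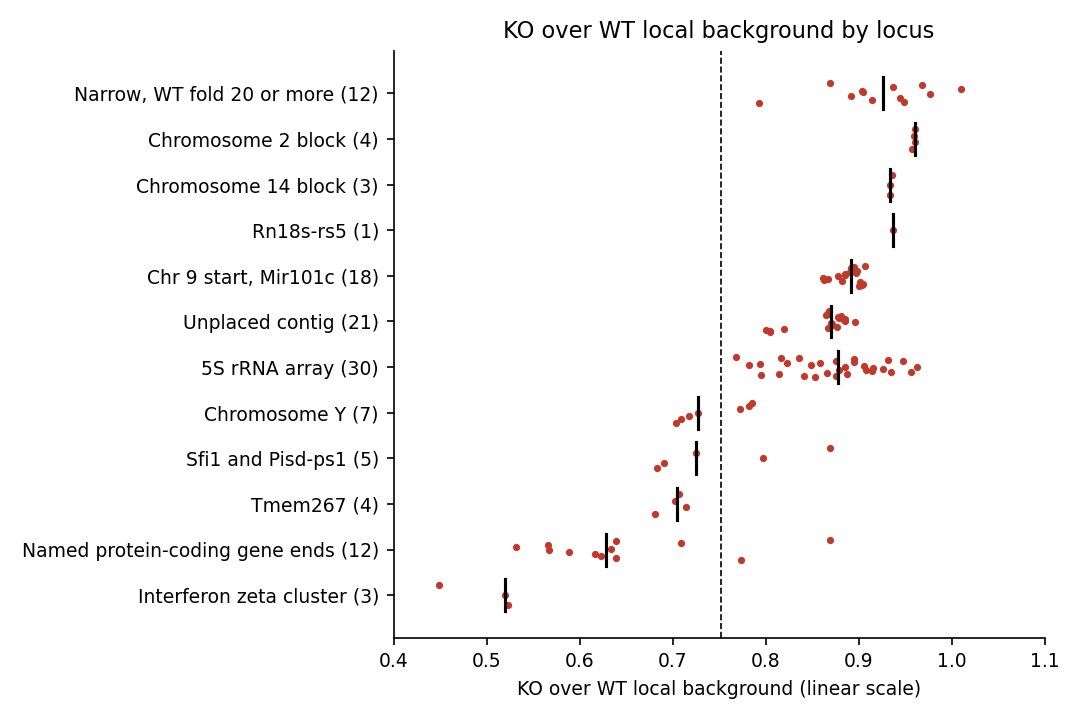
Each point is 1 member with a KO region, with its KO over WT ratio of the local background (linear scale) on the x axis, grouped by locus, with the number of members in brackets and the median as a black bar. The dashed line is the depth ratio of 0.752, with the 30 members of the 5S array to its right and the 3 of the interferon zeta cluster to its left, and Lars2 stands in 2 rows.

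Other blocks of 3 or more members were weaker in reads. At 4930526I15Rik and LOC108167694 on chromosome 9, 124422923 to 124425329, 1 KO region with 28 reads overlapped 2 of 4 members, which had 22 to 42 WT reads. At Gm51573 on chromosome 8, 55364046 to 55374362, 3 members had 24 to 37 WT reads and none had a KO region. The other families counted are read against the 1.42% of all WT regions that were members. Zinc finger genes, counted only where named Zfp, Zscan or Rex2, had 0 members among 322 WT regions within 1 kb. Zbtb20 and Sp4, given above, were outside that count. Transfer RNA genes had 0 of 49, T cell receptor alpha variable segments 0 of 40, histone genes 0 of 39, olfactory receptor genes 0 of 12 and small nuclear RNA genes 0 of 10, numbers too small to tell from that share. MicroRNA genes had 1 of 80 (1.25%), the one by Mir101c, and predicted genes named Gm 39 of 2031 (1.92%), both close to it.

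In the KO list, 19 high-background regions overlapped no member. Of the 5 with the highest background, 2 lay at the start of chromosome 9, given above, and 2 at the start of chromosome 10, at 3114856 to 3115089 and 3109995 to 3110268, with KO backgrounds of 30.94 and 24.56, inside or next to the members there. The remaining one was at Cd4, the co-receptor gene whose regulatory sequence drives the Cre transgene, chromosome 6, 124885153 to 124885486. It had 58 reads in KO and 18 in WT, and 465 reads in 10 kb in KO and 93 in WT, at a ratio of 5.00 (interval 3.99 to 6.32) and the highest of the 7026 WT regions with a KO region. The transgene is present in KO mice only, so that its copies and the gene cannot be told apart here. Most of the remaining 14 lay just under the WT limit, at 2.89 to 3.94 times the WT genome background where a WT region was called.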

How the data were processed

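ATAC-seq of sorted DP thymocytes gave 4 samples in 2 groups of 2 replicates, and per the labels each deposited list pools both replicates of a group. Per the submitters' processing notes, reads were handled with Trim Galore, Bowtie2, Picard and GATK on the build mm10, with deepTools 3.4.1 and FastQC also named, and MACS2 2.1.4 is the peak caller among the tools. Whether reads were shifted, duplicates removed or repeats excluded is not given in the sources used here. The values that the authors deposited per region are a score, the fold enrichment (a ratio), and a p and a q as -log10. The authors' score was not needed further. Library totals were not used.

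Each summit's pileup and background were solved from 2 equations, the fold as (pileup + 1) / (background + 1) and the p as a Poisson tail probability. Pileups were whole within 0.05 on 100% of lines in both lists. Backgrounds above that of the genome came in steps of 0.02, as reads extended to 200 bp over a 10 kb window do, and a background divided by 0.02 is the number of reads in 10 kb. The most frequent background, at 736 KO and 2636 WT summits, was taken as the genome background. On simulated summits 2000 of 2000 pileups and backgrounds were recovered. Genes and promoters came from RefSeq tables of GRCm38.p6, which give no exons, and the promoter windows are the 250 bases before a gene start. Named blocks and members were the 15 blocks of highest WT background, blocks of 3 or more, contigs with members, the 5 highest and 5 lowest ratios, the 5 highest backgrounds without a KO region, the 5 highest KO backgrounds without a member and 5 regions on each side of the limit. Other named members were chosen after their values were seen. The members, lists and families were chosen with earlier results of these data known, and ribosomal RNA by annotation class, the interferon zeta cluster and Dux were added later. The share of reads held by called regions is the summed pileup times width, over all reads in the 10 kb, and is an upper limit. Overlap meant at least 1 bp. With 1 list a group, no test was made. Shares and ratios carry exact 95% intervals (Clopper-Pearson) for counting error. Alternatives were other multiples, significance limits, chromosomes, overlap and gene windows. Software was scipy 1.17.1, numpy 2.4.6, Biopython 1.88, pandas 2.3.3 and matplotlib 3.10.9 under Python 3.11.15.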

Additional observations from a re-analysis of the deposited data

How the results depend on the processing

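With 3 times the genome background as the limit there were 414 members, with 6 times 137, and counted as blocks 89, against 216. Under the 3 times limit the median KO over WT background relative to depth was 0.994, against 1.15, so the members' median no longer stood above the depth ratio, and by blocks, an alternative chosen after seeing the data, it was 1.09. The share on contigs was 7.49% with the 3 times and 20.4% with the 6 times limit, against 13.0%. The share within 1 kb of a gene was 65.5% and 37.2% with those limits, 60.6% on chromosomes 1 to 19, X and Y alone, and 63.0% with a 10 kb window, against 52.8%. With at least 50% of the WT region to be covered, 81.5% of high-background KO regions overlapped a member, against 88.7%. The share of reads that called regions can hold was 67.2% with the 3 times limit, 67.3% with a -log10 q of at least 10 and 82.4% by blocks (chosen after seeing the data), against 62.8%. The causes were not tested. The share of members with a KO region stayed between 71.3% and 79.8% under the 7 alternatives tried for it. In the WT list the lowest background was 1.37, the same as the most frequent one. Using the lowest in its place moved none of the 7 results, so that alternative is no check. No paired analysis was possible because each list pools both replicates, so leaving out a replicate was not possible either. Depth limits the KO list, where a region under the calling limit has no value, so the ratios cover members called in both lists.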
